A study of Homo sapiens with 6 samples.

Results

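Immune checkpoint ligands are proteins that tumor cells place on their surface or release and that bind inhibitory receptors on T cells, NK cells or macrophages. The 10 genes described here encode the PD-1 ligands PD-L1 (CD274) and PD-L2 (PDCD1LG2), the B7 family proteins B7-H3 (CD276) and B7-H4 (VTCN1), the nectin family ligands PVR and NECTIN2, galectin-9 (LGALS9), CD47, the ectoenzyme CD73 (NT5E) and CMTM6, a membrane protein that protects PD-L1 from degradation. They were chosen by symbol, and all 10 had a row among the 37887 rows of the count table. The data are RNA-seq counts from BT-549 cells, an established triple-negative breast cancer (TNBC) cell line, in 2 groups of 3 libraries, shCTL and shPBRM1. All cells carried a stably expressed, tetracycline-inducible PBRM1 shRNA vector according to the series design, selected with puromycin, and no clone is named. PBRM1 encodes a bromodomain subunit of the PBAF chromatin remodeling complex. The 3 shCTL libraries, titled as control shRNA, were labelled as vehicle-treated with 0.1% DMSO, and the 3 shPBRM1 libraries as treated with 500 ng/ml doxycycline (DOX). The time on DOX for these libraries is not given in the sources used here. By these labels, DOX was given to every silenced library and to no shCTL library, so that its own effect and that of silencing cannot be told apart. The titles, which name a control shRNA, and the design, which gives all cells the PBRM1 shRNA vector, disagree. In its chromatin assays, the paper compares control shRNA cells with PBRM1 shRNA cells, and its RNA-seq text sets PBRM1 shRNA cells against controls. Its methods name an inducible vector for the MUC1 and control shRNAs and do not state one for PBRM1. Whether the groups also differ in vector is therefore not settled, and an effect of the vector could not be told apart either.

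PD-L1 and PD-L2 bind PD-1 on T cells and restrain signaling from the T cell receptor. In many tumor cells, transcription of CD274 is induced by interferon through JAK kinases and IRF1, which acts on interferon-stimulated response elements (ISREs). PVR and NECTIN2 engage the inhibitory receptor TIGIT as well as the activating receptor CD226, and NECTIN2 also engages the inhibitory receptor PVRIG. CD47 binds SIRPA on macrophages as a do-not-eat-me signal, galectin-9 binds TIM-3 (HAVCR2) among other glycoproteins, and CD73 produces immunosuppressive adenosine outside the cell. The comparison addresses which of these ligands moved at the transcript level in cells silenced for PBRM1. Transcript levels do not measure the amount of protein at the cell surface.

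PBRM1 itself fell in the shPBRM1 libraries, with a log2 fold change of -1.91 ± 0.027 (SE, n = 3 per group; edgeR adjusted p = 9.98e-23). Total counts were between 36429395 and 65096297 per library, so that 3 counts, taken as the floor of detection, corresponded to 0.0471 to 0.0804 CPM, which covers counting error only. CPM values are read counts scaled to library size, here with the TMM normalization of edgeR. The cultures were triplicates, and nothing states that they were grown on separate occasions, so that p-values measure the spread between these libraries. BT-549 is a mesenchymal-type line, and all 8 mesenchymal markers were tested, of which 5 were higher, VIM (vimentin, 620.5 to 769.8 CPM) among them, and 3 were lower (FN1 at -1.33, ZEB1 at -0.55 and SPARC at -0.37 on the log2 scale). Of 5 tested epithelial and receptor markers, the keratin genes KRT18 (4.54 to 51.5 CPM) and KRT8 (2.80 to 23.9 CPM) were higher, CDH1 (-1.73) and ESRP1 (-2.11) were lower, and ERBB2 was not called. The part of these shifts in the results below was not tested. ESR1, PGR and EPCAM had at most 2, 12 and 8 counts in any library. A further keratin gene, KRT19, was not tested and had 6, 10 and 24 counts in shCTL and 0 in every shPBRM1 library.

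Of the 10 promoters, 9 had a RefSeq entry (GRCh38.p14; 250 bases before to 50 bases after the start of transcription), and PDCD1LG2 had none and was not searched. The 9 were searched on both strands for GAAANNGAA, an ISRE-like pattern, for TTCNNNGAA, a pattern like the gamma-activated site (GAS) bound by STAT dimers, and for a kappaB motif. Windows with a match made up 8.11%, 7.66% and 11.3% of 35116 promoters, respectively. Among these 9, CD274 and LGALS9 had an ISRE-like match, and their sequences are shown because both fell by more than 2-fold below, as did PDCD1LG2, whose promoter was not searched. The CD274 window is chr9:5450292-5450502, on the plus strand, from 250 to 40 bases before the RefSeq start, ending before the first exon of the GENCODE v29 annotation. The LGALS9 window is chr17:27631165-27631194, on the plus strand, from 23 bases before the RefSeq start to base 7. Capitals mark the matches, of which the first run in CD274 holds 2 overlapping ISRE-like matches read on the other strand, and the second a GAS-like match.
CD274: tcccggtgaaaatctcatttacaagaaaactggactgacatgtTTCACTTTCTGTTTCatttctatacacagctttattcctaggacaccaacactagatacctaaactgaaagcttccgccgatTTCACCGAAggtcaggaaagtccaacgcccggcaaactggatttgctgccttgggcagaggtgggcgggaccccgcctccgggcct
LGALS9: ccaagttgctttggtTTCTATTTCtttgtt
The ISRE-like matches in CD274, GAAAGTGAA and GAAACAGAA, lay from -207 to -199 and from -201 to -193 relative to the start, and the GAS-like match, TTCACCGAA, from -125 to -117. The match in LGALS9, GAAATAGAA on the other strand, lay from -8 to 1, that is across this start. The RefSeq start of LGALS9 lies 1390 bases inside the GENCODE gene, so that another promoter of this gene was not searched. The second of 2 CD276 promoters held a kappaB match, and the windows of VTCN1, PVR, NECTIN2, CD47, NT5E and CMTM6 held none of the 3 patterns. A match describes letters in a window and not binding.

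Silencing was accompanied by lower transcript levels of most of these ligands. Of the 10 genes, 9 passed the filter on low counts and were tested, and VTCN1 was not. By edgeR's quasi-likelihood test at an adjusted p under 0.05 over all 15450 tested genes, 7 were lower in shPBRM1 cells (CD274, PDCD1LG2, PVR, NECTIN2, LGALS9, CD47 and NT5E), against a background of 33.2% of all tested genes. CMTM6 was the 1 gene called higher, against a background of 31.5%, and CD276 was not called. With a fold change over 2 added, 3 were lower (CD274, PDCD1LG2 and LGALS9) against a background of 9.68%, and 0 were higher against a background of 2.87%. In 7 of the 9 tested genes the shCTL and shPBRM1 values did not overlap, as in 68.3% of all tested genes. Their log2 fold changes had a median of -0.41, beside -0.0080 over all tested genes. The calls are thus common in these libraries, and the members are described below by the size of their changes.

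**Figure D1:**
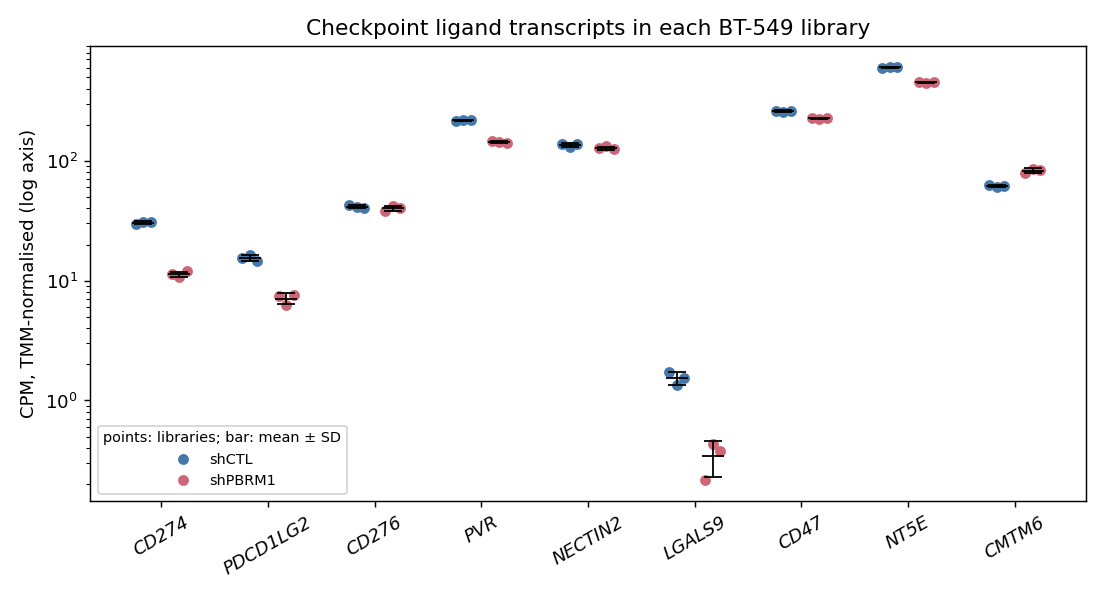
Level of each tested checkpoint gene in each library, in TMM-normalized CPM on a log axis, for shCTL (blue) and shPBRM1 (red), with 3 libraries per group and bars for mean ± SD. CD274 dropped from 29.6–31.1 to 10.8–11.9 CPM and CMTM6 rose from 60.0–63.1 to 78.9–85.7 CPM, whereas the points of CD276 and NECTIN2 overlap between groups.

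CD274 lies on the short arm of chromosome 9 (5450503 to 5470566, plus strand, GRCh38; ENSG00000120217), and no other annotated gene overlaps it. Its level was 29.6, 30.6 and 31.1 CPM in the 3 shCTL libraries and 11.3, 10.8 and 11.9 CPM in the 3 shPBRM1 libraries. Every shPBRM1 library was below every shCTL library, on raw counts of 1104 to 1569 and 420 to 760. The mean fell from 30.4 ± 0.778 to 11.3 ± 0.566 CPM (SD, n = 3 each), or to 37.3% of shCTL. On the log2 scale the difference was -1.42 ± 0.047 (SE; edgeR adjusted p = 4.66e-15), with a 95% interval of -1.55 to -1.28 from limma-voom. Of all tested genes, 6.21% had a lower log2 fold change. In these bulk libraries, fewer cells that express a gene and less RNA of it per cell cannot be told apart.

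PDCD1LG2 starts 60.1 kb downstream of the CD274 start (chromosome 9, 5510570 to 5571254, plus strand; ENSG00000197646). Its level was 15.4, 16.4 and 14.6 CPM in shCTL and 7.43, 6.22 and 7.59 CPM in shPBRM1 cells. The groups were again fully separated. The mean fell from 15.5 ± 0.863 to 7.08 ± 0.751 CPM (SD, n = 3 each), with a log2 fold change of -1.11 ± 0.10 (SE; edgeR adjusted p = 8.64e-11; 95% interval -1.29 to -0.92). The interval of its difference reaches a decrease of less than 2-fold, whereas that of CD274 does not. Within each library, the ratio of CD274 to PDCD1LG2 counts, which needs no normalization between libraries, was 1.97 ± 0.135 in shCTL and 1.61 ± 0.111 in shPBRM1 cells (SD, n = 3 each), without overlap. The smallest two-sided p that an exact permutation test can give with 3 libraries against 3 is 0.10, and these ratios were not tested.

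**Figure D2:**
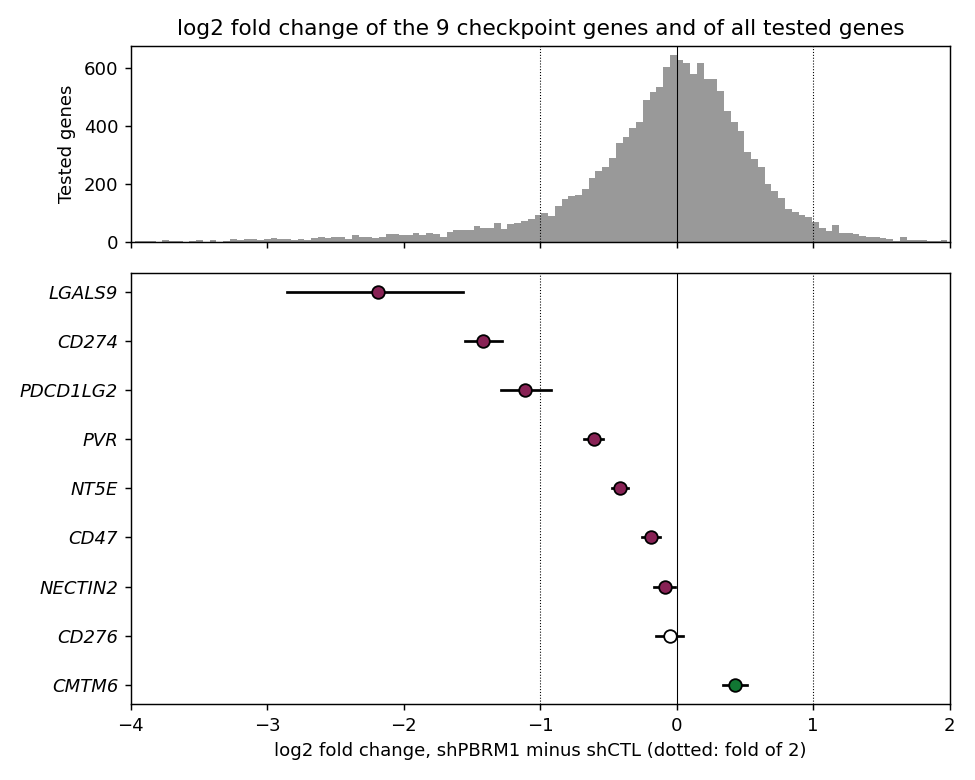
Top, number of tested genes by log2 fold change (shPBRM1 minus shCTL), drawn from -4 to 2. Bottom, log2 fold change of the 9 tested checkpoint genes with the 95% limma-voom interval as a line, where purple is lower, green is higher and white is not called, and dotted lines mark a fold of 2. LGALS9, CD274 and PDCD1LG2 lie beyond the dotted line on the left, and CMTM6 is the 1 gene to the right of 0.

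The neighborhood of the PD-1 ligand genes did not move as a block. Among 11 tested neighbors, with starts from -657.6 kb (RCL1) to 1195.3 kb (GLDC) relative to the CD274 start, 2 were lower, 4 were higher and 5 were not called. PLGRKT, a plasminogen receptor gene whose start lies at -12.6 kb, was higher (log2 fold change 0.54 ± 0.12, adjusted p = 2.87e-06). On the other side, RIC1 at 178.5 kb had -0.022 ± 0.022 (adjusted p = 0.599) and ERMP1 at 382.6 kb was higher at 1.04 ± 0.043 (adjusted p = 5.87e-17). RIC1 and ERMP1 overlap on opposite strands, as do MLANA and KIAA2026 and JAK2 and INSL6. The nearest tested genes on both sides of CD274 and PDCD1LG2 were thus higher or not called. JAK2, the kinase downstream of the interferon gamma receptor, lies at -466.1 kb and was lower (log2 fold change -0.55 ± 0.054, adjusted p = 7.22e-11). Among the others, MLANA (0.94) and RANBP6 (0.29) were higher and UHRF2 (-0.16) was lower, whereas RCL1 (0.084), INSL6 (0.41), KIAA2026 (-0.076) and GLDC (0.019) did not pass the test.

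**Figure D3:**
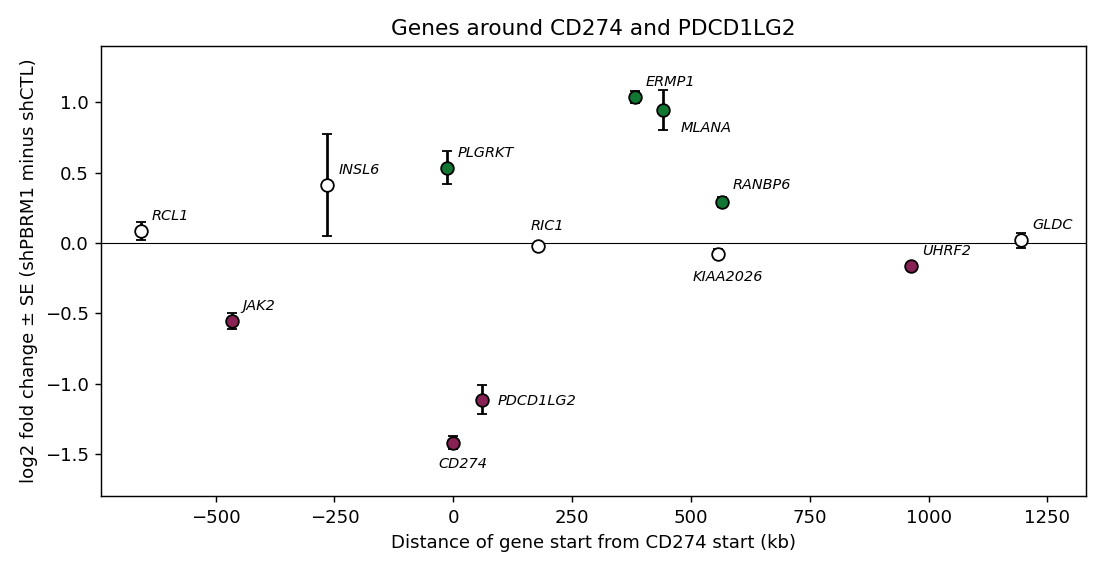
Log2 fold change ± SE (shPBRM1 minus shCTL) of CD274, PDCD1LG2 and the tested genes around them, by the distance of each gene start from the CD274 start in kb (3 libraries per group). Purple is lower, green is higher and white is not called. CD274 (-1.42) and PDCD1LG2 (-1.11) lie far below PLGRKT (0.54) and RIC1 (-0.022), their nearest tested neighbors.

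Genes listed for the transcription of CD274, including interferon receptor chains and kinases, were mostly lower as well. Whether each of them acts on CD274 in BT-549 cells was not tested. Of the 24 listed genes, all tested, 17 were lower, 4 were higher and 3 were not called, with a median log2 fold change of -0.31. Some of these genes were picked in the study on these libraries, so that the list is not independent evidence of a direction. IRF1, the interferon-induced activator that binds ISREs, fell from 113.4 to 37.4 CPM (log2 fold change -1.60 ± 0.039, adjusted p = 2.83e-20). STAT2 (-2.36), IRF9 (-1.88) and NLRC5 (-3.76), a transactivator of MHC class I genes, were lower too. In the opposite direction, the interferon receptor chains IFNAR1 (0.43), IFNAR2 (0.69) and IFNGR2 (0.38) were higher, and IFNGR1 (-0.025, adjusted p = 0.532) was not called. STAT3, which interleukin-6 family cytokines activate, did not pass the test (-0.072, adjusted p = 0.127).

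CMTM6 moved opposite to the ligand that it protects. CMTM6 encodes a MARVEL-domain membrane protein that keeps PD-L1 out of lysosomal degradation (chromosome 3, 32481312 to 32503408, minus strand; ENSG00000091317). Its level was 63.1, 60.0 and 61.6 CPM in shCTL and 78.9, 85.7 and 84.0 CPM in shPBRM1 cells. All shPBRM1 libraries were above all shCTL libraries. The mean rose from 61.6 ± 1.58 to 82.9 ± 3.56 CPM (SD, n = 3 each), which is 1.35-fold, with a log2 fold change of 0.43 ± 0.042 (SE; edgeR adjusted p = 1.29e-09; 95% interval 0.34 to 0.51). CMTM7 overlaps it on the opposite strand and did not pass the test (0.018, adjusted p = 0.883), with 205 to 379 counts per library. Within libraries, the ratio of CD274 to CMTM6 counts dropped from 0.494 ± 0.0226 to 0.137 ± 0.00977 (SD, n = 3 each), without overlap.

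The other CMTM genes were called in both directions. Of 5 tested, CMTM3 was higher (0.40, adjusted p = 2.18e-05), CMTM4, which can stand in for CMTM6 in protecting PD-L1, was lower (-0.16, adjusted p = 0.0123), and 3 were not called. The CMTM4 call was lost without shCTL replicate 3 (adjusted p = 0.0757) and without shPBRM1 replicate 1 (adjusted p = 0.0646). A further list covered the handling of PD-L1 protein, such as its glycosylation, shedding, deubiquitination and degradation. Among 20 tested genes of this list, 12 were higher, 4 were lower and 4 were not called, with a median of 0.20. The sheddase gene ADAM10 (0.67) and COPS5 (0.53), a subunit of the COP9 signalosome that deubiquitinates PD-L1, were higher. HIP1R (-1.11), which targets PD-L1 to lysosomes, and the ubiquitin ligase gene RNF144A (-0.75) were lower. Genes that stabilize PD-L1 and genes that remove it thus occurred in both directions.

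**Figure D4:**
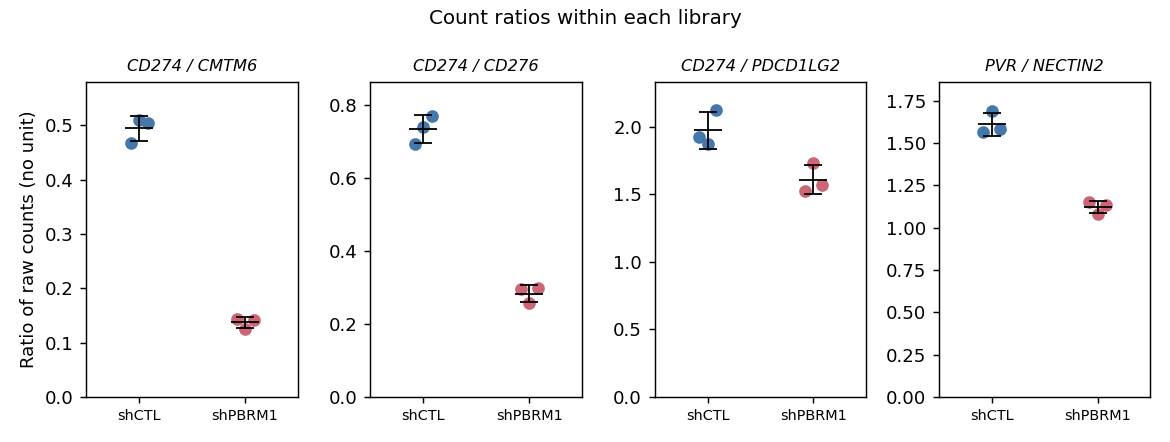
Ratio of raw counts of gene pairs within each library (no unit, axes from 0) for shCTL (blue) and shPBRM1 (red), with bars for mean ± SD of 3 libraries. CD274 fell relative to CMTM6 (0.494 to 0.137) and to CD276 (0.734 to 0.283), and PVR relative to NECTIN2 (1.61 to 1.12), with no overlap between groups.

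Of the B7 family members CD276 and VTCN1, the first was not called and the second was too scarce to test. CD276, an inhibitory B7 protein that is abundant on many carcinomas, lies on chromosome 15 (73683966 to 73714518, plus strand; ENSG00000103855). Its level was 42.7, 41.4 and 40.4 CPM in shCTL and 38.5, 41.9 and 40.1 CPM in shPBRM1 cells. The groups overlapped, with means of 41.5 ± 1.15 and 40.2 ± 1.72 CPM (SD, n = 3 each). The log2 fold change was -0.049 ± 0.042 (SE; edgeR adjusted p = 0.393), and the 95% interval of -0.15 to 0.048 leaves room for a small change. The ratio of CD274 to CD276 counts fell from 0.734 ± 0.0388 to 0.283 ± 0.0222 (SD, n = 3 each). VTCN1 (chromosome 1, 117143587 to 117210960, minus strand; ENSG00000134258), often expressed in luminal and gynecologic tumors, had 0, 3 and 7 counts in shCTL and 1, 0 and 0 counts in shPBRM1 cells. As 1 library passed the floor of 3 counts, a difference was not detectable at this depth, and no fold change is given. Without the filter, edgeR gave an adjusted p of 0.134.

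Other genes of the CD28 and B7 ligand class and the related butyrophilins were mostly lower. Of 9 tested genes, 6 were lower, 1 was higher and 2 were not called (median -0.78). The decreases included BTN3A3, BTN3A2 and BTN3A1, a cluster whose products present phosphoantigen signals to gamma delta T cells. BTN3A3 fell from 17.4 ± 0.664 to 3.25 ± 0.433 CPM (SD, n = 3 each; log2 fold change -2.41 ± 0.11, adjusted p = 3.87e-16). BTN3A2 (-1.15), BTN3A1 (-0.80) and BTN2A2 (-0.78) followed in size, while BTN2A1 (-0.030, adjusted p = 0.566) was not called. These butyrophilins are close paralogs, and reads that they share could have been split between them. CD80, the classical ligand of CD28 and CTLA-4, had at most 6 counts in any library and was not tested.

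PVR and NECTIN2, which share the receptors TIGIT and CD226, differed in the size of their change. PVR (CD155; chromosome 19, 44643798 to 44663583, plus strand; ENSG00000073008) stood at 215.1, 220.9 and 218.2 CPM in shCTL and at 146.0, 142.3 and 140.6 CPM in shPBRM1 cells. The groups were far apart relative to their spread. The mean fell from 218.1 ± 2.91 to 143.0 ± 2.74 CPM (SD, n = 3 each), or to 65.6% of control, with a log2 fold change of -0.61 ± 0.019 (SE; edgeR adjusted p = 4.18e-13; 95% interval -0.68 to -0.54). CEACAM19 overlaps PVR on the same strand, with 14 to 51 counts per library beside 5536 to 11002 counts of PVR.

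NECTIN2 (CD112; chromosome 19, 44846175 to 44889228, plus strand; ENSG00000130202) stood at 137.5, 130.7 and 138.1 CPM in shCTL and at 126.7, 131.7 and 124.2 CPM in shPBRM1 cells. Here shCTL replicate 2 lay below shPBRM1 replicate 2, so that the groups overlapped. The means were 135.4 ± 4.10 and 127.5 ± 3.79 CPM (SD, n = 3 each), and the log2 fold change was -0.087 ± 0.035 (SE; edgeR adjusted p = 0.0396; 95% interval -0.16 to -0.013). The call was lost with DESeq2 (adjusted p = 0.0742), with RLE factors (0.0527), without the filter (0.0651), and without shCTL replicate 1 (0.103) or 3 (0.124) or shPBRM1 replicate 1 (0.0897) or 3 (0.209). The intervals of PVR and NECTIN2 do not meet, and the ratio of PVR to NECTIN2 counts within libraries fell from 1.61 ± 0.0687 to 1.12 ± 0.0372 (SD, n = 3 each), without overlap. Of 6 other tested nectin and nectin-like genes, 2 were higher (NECTIN1 at 0.31 and CADM2 at 0.75), 2 were lower (CADM1 at -0.42 and CADM4 at -0.54) and 2 were not called (NECTIN3 and AFDN), with a median of -0.0085.

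LGALS9 had the largest fold decrease of the 9 tested genes, from the lowest level. It lies on chromosome 17 (27629798 to 27649560, plus strand; ENSG00000168961), and AC015688.4, an annotated protein-coding gene, overlaps it on the same strand. Raw counts were 65, 66 and 77 in shCTL and 13, 17 and 24 in shPBRM1 cells, above the floor of 3 counts in every library. In CPM these were 1.74, 1.36 and 1.53 against 0.217, 0.437 and 0.377. The groups did not overlap, but both were scarce. The mean fell from 1.54 ± 0.192 to 0.343 ± 0.114 CPM (SD, n = 3 each), with a log2 fold change of -2.19 ± 0.29 (SE; edgeR adjusted p = 5e-07; 95% interval -2.86 to -1.57), and the interval was the widest of the 9 genes. The near-identical LGALS9B and LGALS9C had at most 0 and 2 counts, so that few reads were assigned to these copies, and how the counting treated reads shared among them is not given in the sources used here.

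Among 6 other tested galectin genes, 4 were lower, 1 was higher and 1 was not called (median -0.84). LGALS3BP, which encodes a secreted glycoprotein that binds galectins, fell from 222.2 ± 3.18 to 11.6 ± 0.558 CPM (SD, n = 3 each; log2 fold change -4.26 ± 0.042, adjusted p = 8.57e-28). LGALS8 (-1.47), LGALSL (-1.02) and LGALS3 (-0.57) were also lower. In contrast, LGALS1, the most abundant galectin gene here and one that promotes T cell death, rose from 445.1 ± 22.6 to 675.0 ± 19.5 CPM (SD, n = 3 each; 0.60 ± 0.048, adjusted p = 1.81e-11).

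CD47 was abundant and fell slightly. It lies on chromosome 3 (108043094 to 108091862, minus strand; ENSG00000196776), and its level was 262.7, 253.0 and 259.2 CPM in shCTL and 227.1, 224.9 and 228.3 CPM in shPBRM1 cells. All 3 shPBRM1 values were below the shCTL values. The mean fell from 258.3 ± 4.94 to 226.8 ± 1.76 CPM (SD, n = 3 each), to 87.8% of control, with a log2 fold change of -0.19 ± 0.017 (SE; edgeR adjusted p = 9.03e-05; 95% interval -0.25 to -0.12). Of all tested genes, 36.5% had a lower log2 fold change, so that this change is near the middle of the transcriptome despite its small error.

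Several genes of other signals to macrophages and of CD47 partners were lower. Of 9 tested do-not-eat-me and CD47-partner genes, 5 were lower, 1 was higher and 3 were not called (median -0.40). CD24, the ligand of Siglec-10, had 1278 to 1793 counts in shCTL and 430 to 824 counts in shPBRM1 libraries (log2 fold change -1.52 ± 0.070, adjusted p = 1.71e-15). B2M, the MHC class I light chain that engages LILRB1, fell from 692.8 ± 5.84 to 270.1 ± 13.8 CPM (-1.36 ± 0.043, adjusted p = 4.8e-18). LRP1 (-0.82), a receptor for calreticulin, QPCT (-0.87) and THBS1 (-0.40), which encodes the CD47 ligand thrombospondin-1, were lower. The gene called higher was STC1 (0.51). QPCTL, whose enzyme modifies the SIRPA-binding end of CD47, was not called (30.2 and 30.1 CPM, adjusted p = 0.974), nor was the eat-me signal gene CALR (0.064, adjusted p = 0.19).

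NT5E was the most abundant of the 10 genes. It encodes CD73, which converts extracellular AMP to adenosine (chromosome 6, 85449584 to 85495791, plus strand; ENSG00000135318). The level was 593.0, 601.2 and 610.6 CPM in shCTL and 457.4, 443.4 and 453.4 CPM in shPBRM1 cells, with no overlap. The mean fell from 601.6 ± 8.81 to 451.4 ± 7.20 CPM (SD, n = 3 each), to 75.0% of control, with a log2 fold change of -0.41 ± 0.018 (SE; edgeR adjusted p = 1.82e-09; 95% interval -0.47 to -0.35).

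The rest of the adenosine pathway was called in both directions. Of 13 other tested genes, 8 were higher, 4 were lower and 1 was not called (median 0.30). ENPP1, which makes AMP from ATP and degrades the STING ligand cGAMP, rose from 40.5 ± 2.37 to 82.4 ± 0.350 CPM (SD, n = 3 each; log2 fold change 1.02 ± 0.049, adjusted p = 8.81e-16). CD38, an NAD-consuming ectoenzyme upstream of adenosine (0.72), ENTPD1, the ATP-hydrolyzing CD39 gene (0.26), the adenosine receptor gene ADORA2B (0.50) and the nucleoside transporter gene SLC29A1 (0.63) were higher. So were ADA (0.32), ADK (0.30) and ADORA2A (1.04, on a mean of 14.3 counts). NT5C2 (-0.96), a cytosolic nucleotidase gene, SLC29A2 (-0.87), PNP (-0.39) and NT5C3A (-0.13) were lower, as NT5E was.

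Per kb of annotated exon, the order of levels among the 10 genes in shCTL cells was NT5E (132.7 CPM per kb), PVR (62.0), NECTIN2 (36.1), CD47 (31.4), CMTM6 (13.95), CD276 (7.49), CD274 (7.41), PDCD1LG2 (6.54), LGALS9 (0.270) and VTCN1 (0.022). Neighbors in this order did not overlap between libraries, except CD276 and CD274. In shPBRM1 cells the first 6 places were unchanged, with NT5E at 99.6, PVR at 40.6, NECTIN2 at 34.0, CD47 at 27.6, CMTM6 at 18.8 and CD276 at 7.25 CPM per kb. PDCD1LG2 (2.99) and CD274 (2.76) then overlapped each other and both stood below CD276, before LGALS9 (0.060) and VTCN1 (0.0018). Thus CD274 and CD276, which had the same level per kb within their spread in shCTL cells, were separated after silencing. The summed level of the 10 genes was 1356 to 1376 CPM in shCTL and 1087 to 1094 CPM in shPBRM1 libraries. NT5E made up 43.6% to 44.4% of this sum in shCTL and 40.8% to 41.8% in shPBRM1 libraries, CMTM6 4.42% to 4.64% and 7.22% to 7.89%, and CD274 2.17% to 2.26% and 0.993% to 1.09%. The exon lengths are those of all annotated transcripts together, and the isoforms that BT-549 cells use were not measured here.

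Other immunoregulatory ligands and enzymes moved in both directions. Of 15 tested such genes, 9 were lower, 3 were higher and 3 were not called (median -1.32). IDO1, the tryptophan-degrading enzyme gene, fell from 38.5 ± 1.12 to 0.474 ± 0.210 CPM (SD, n = 3 each; log2 fold change -6.30 ± 0.32, adjusted p = 7.59e-22). TDO2 (-2.83), the complement regulator gene CD55 (-1.88) and HLA-E (-1.32 ± 0.29), the ligand of NKG2A, were also lower. HLA-E varied widely between libraries, with 43.7, 47.3 and 27.8 CPM in shCTL and 14.3, 19.7 and 14.0 CPM in shPBRM1 cells. TGFB1 (0.81), CD59 (1.11) and HMGB1 (310.5 to 619.8 CPM) were higher. Of 9 tested TNF superfamily and TNF receptor ligands of T cells, 6 were lower and 3 were higher (median -1.16). TNFSF10 (TRAIL) fell from 4.45 ± 0.743 to 0.175 ± 0.123 CPM (SD, n = 3 each; -4.71 ± 0.67, adjusted p = 1.6e-12). Its shPBRM1 libraries had 2, 10 and 15 counts, the first below the floor of 3 counts, so that the size of this decrease is uncertain. TNFSF15 had -2.50, and CD70 (0.32) and TNFSF9 (0.25), the ligand of 4-1BB, were higher. With genes of at least 50 counts on average, 2 rather than 6 of this list were called lower, since the other genes were no longer tested. Over all 11 lists of pathway genes, 126 of 163 genes in the table were tested, 59 were lower, 40 were higher and 27 were not called. The background for this count and for the counts of each list is 33.2% lower and 31.5% higher over all tested genes.

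**Figure D5:**
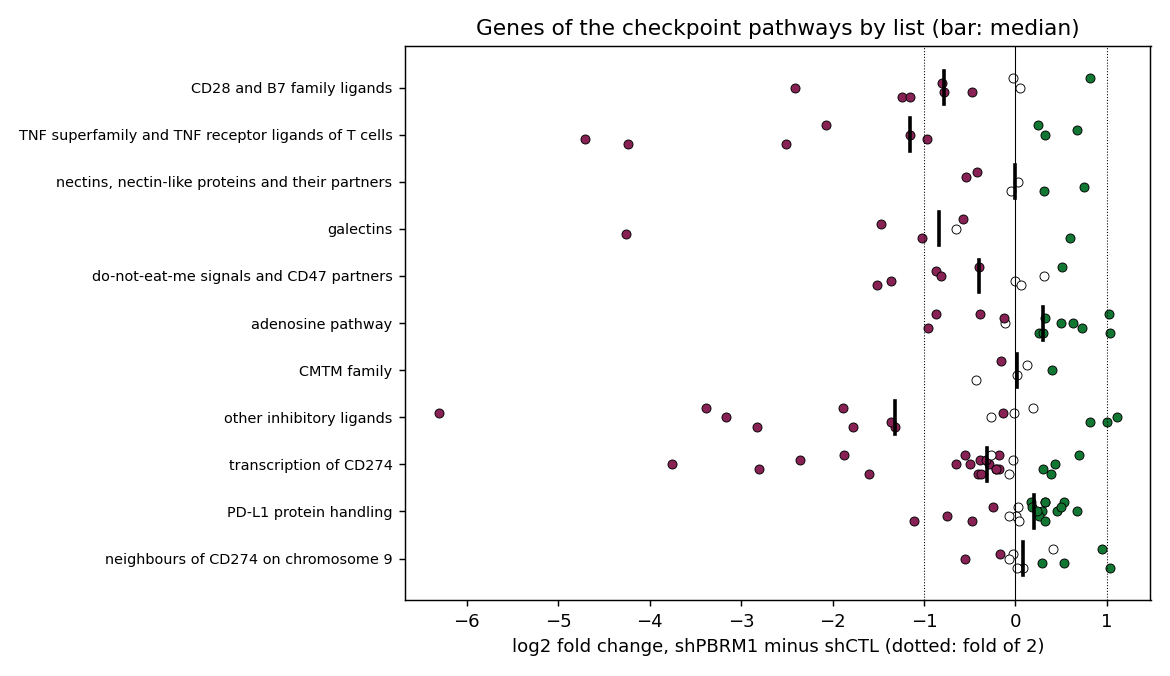
Log2 fold change (shPBRM1 minus shCTL) of each tested gene of the 11 pathway lists, 1 point per gene, with a bar at the list median. Purple is lower, green is higher and white is not called, and dotted lines mark a fold of 2. The medians run from -1.32 for other inhibitory ligands to 0.30 for the adenosine pathway.

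The receptors for these ligands were looked at to see whether immune cells were present in the libraries. The PD-1 gene PDCD1 and TIGIT, CD28, ICOS and LILRB1 had no count in any library, and CTLA4, BTLA and TREML2 had at most 4, HAVCR2 at most 9 and PVRIG at most 17 counts. Of the 5 tested receptors, SIRPB1 was higher (68.5 to 140.9 CPM, log2 fold change 1.04, adjusted p = 7.97e-18), SIRPA was lower (36.2 to 28.1 CPM, -0.37, adjusted p = 3.63e-06), and CD226, SIRPG and LAG3 did not pass the test. SIRPB1, SIRPA and SIRPG are close paralogs, and reads that they share could have been split between them. Of 15 immune cell markers, 4 had no count in any library, including the T cell genes CD3D, CD3E and CD2 and the B cell gene MS4A1, and 7 had over 3 counts in at least 1 library (PTPRC, CD4, CD14, CD68, CD163, ITGAM and CSF1R, at most 110 counts). Of the 5 tested, PTPRC and CD163 were lower, CD14 was higher, and CD4 and CSF1R were not called. The summed level of the 15 markers was 4.20 to 5.06 CPM in shCTL and 2.07 to 2.57 CPM in shPBRM1 libraries, and the part of these few transcripts in the differences above was not tested.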

How the data were processed

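RNA-seq was performed on triplicate cultures of BT-549 cells, with RNA isolated by Trizol and libraries made with a stranded mRNA kit. The authors deposited raw read counts per gene symbol. The submitters' processing notes name CASAVA 1.8.2, STAR 2.7.9a, featureCounts, DESeq2 1.24.0 and GRCh38.p7; the annotation and the strand setting are not given in the sources used here. Unstranded counting would mix a gene with its antisense partners. The columns of the shCTL libraries are named without a group and were matched to the samples by number and by the absence of the shPBRM1 name.

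Counts were tested with edgeR 4.0.16 in R 4.3.3 (filterByExpr, TMM, quasi-likelihood F-test, Benjamini-Hochberg adjustment over 15450 genes). SEs come from the spread of log2 CPM with 2 counts added, and 95% intervals from limma-voom (limma 3.58.1). A call needed an adjusted p under 0.05, and in a second count also a fold change over 2, as in the study. Same-group libraries differed by more than sampling noise (chi-square per degree of freedom 4.92 to 24.9). Replicate numbers come from the titles, and deviations from the group means correlated at 0.734, 0.593 and 0.419 across 5622 genes for numbers 1, 2 and 3, beside -0.671 to 0.464 for unlike numbers, so the number was also fitted as a block. On simulated counts with 200 genes changed 4-fold, edgeR recovered 190, with 12 false calls among 15412 genes. In the data, 5137 genes were called lower and 4863 higher, and most tested members changed by less than 2-fold. Such a setting was not simulated, so these figures do not bear on it.

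The 10 genes and all lists were chosen with earlier results of these data known. Named from each list were the 4 largest changes among called genes that averaged 100 counts or more and did not overlap, all tested neighbors of CD274, immune genes with over 3 counts in any library, and IRF1 and JAK2. A result for 1 further gene of this rule is not reported here. Other list genes named in the text were chosen after their values were seen. Positions are from GENCODE v29 (GRCh38). The alternatives were DESeq2 1.42.0, limma-voom, RLE factors, library size only, the number as a block, no filter, a filter at 50 counts on average, leave-one-out fits, a threshold of 0.001 and glmTreat against a fold of 2. The endothelial, mesenchymal and epithelial lists had 1, 5 and 2 genes higher and 1, 3 and 2 lower of 2, 8 and 5 tested. The protein sequences were not used here.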

Additional observations from a re-analysis of the deposited data

How the results depend on the processing

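Among the 10 checkpoint genes, the log2 fold changes of CD274 (-1.47 to -1.38), PDCD1LG2 (-1.17 to -1.03), PVR (-0.66 to -0.60), CD47 (-0.24 to -0.18), NT5E (-0.46 to -0.40) and CMTM6 (0.38 to 0.47) kept their direction and their call under 13 alternative fits, and LGALS9 (-2.35 to -1.92) did so under the 12 that tested it, since it dropped out at a mean of at least 50 counts. CD276 was not called in any of them (-0.098 to -0.014). NECTIN2 kept its direction (-0.14 to -0.067) and was called in 6 of 13, and the cause was not tested. With the replicate block, 7 members were lower and 1 was higher, as without it, and over all 16 lists 69 genes were lower and 48 higher, beside 68 and 49 without it, so that the block changed no call of a member. Against a fold change of 2 with glmTreat, which asks for a decrease beyond that size, 2 members were lower and 0 higher, and of the listed genes 26 were lower and 3 higher. Further values were compared for 52 other genes, which were the largest changes of each list under the naming rule, and IRF1. Of these 676 values, 674 kept direction and call, 2 lost the call (both CMTM4) and 0 reversed. The other list genes named in the text were not compared in this way. Scaling by library size only moved the median of all genes from -0.0080 to -0.056, which is within the size of the CD276 and NECTIN2 differences. Depth limits LGALS9 and VTCN1.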
